A study of Mesocricetus auratus with 7 samples.

Results

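ENSMAUG00000018677 and ENSMAUG00000019671 are 2 of the 22285 genes counted in golden hamster oocytes at the germinal vesicle (GV) stage, of which 15531 had a count in at least 1 library. The study's gene list names them Tmem39a and Gbp7. They were chosen by their levels as CPM, the count of a gene scaled to a library total of 1000000, in all 7 libraries. Both were scarce in every WT and HET library and higher in every KO library. Their levels are therefore given as a description, with no test.

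GV oocytes are fully grown and held in the first meiotic block. The WT libraries (n = 2) came from wild-type females of 37 and 17 weeks. HET (n = 2, 40 and 36 weeks) and KO (n = 3, 45, 40 and 36 weeks) females carried a Mov10l1 allele without exon 20, on one or both chromosomes. The allele descends from a single edited founder female bred to outbred animals. KO females came from matings of HET animals.

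PIWI proteins silence retrotransposons with short guide RNAs called piRNAs, and the RNA helicase MOV10L1 takes part in making many of them from long single-stranded RNAs. TMEM39A is a multi-pass membrane protein of the endoplasmic reticulum with roles in autophagy and in the transport of proteins towards the Golgi. GBP7 belongs to the guanylate-binding proteins, large GTPases that are induced by interferon and act in the defence of cells against intracellular pathogens.

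Each library held RNA of 6 to 12 oocytes, and its total was between 24242442 and 33956304 estimated counts. Mov10l1 (ENSMAUG00000003667) was measured at 13.8 and 36.2 CPM in the WT libraries, at 15.9 and 18.8 in the HET libraries and at 4.60, 6.40 and 3.26 in the KO libraries. All KO libraries were below all others for the targeted gene. Piwil3, which encodes a PIWI protein of the oocyte, was found at 80.0 to 106 CPM in the WT and HET libraries and at 109 to 139.6 CPM in the KO libraries, which were all higher. The oocyte, granulosa cell and leukocyte markers were not matched to rows, so that RNA of other ovarian cells was not measured. CPM are shares, and more of a transcript per oocyte cannot be told apart from less of all other RNA.

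Tmem39a was scarce in WT and HET oocytes and a well-counted transcript in KO oocytes. WT libraries held 75 and 246 estimated counts, HET libraries 363 and 34, and KO libraries 3976.25, 4978.25 and 4802.25. On the CPM scale these were 3.09 (WT 1), 7.83 (WT 2), 12.0 (HET 2), 1.22 (HET 3), 153 (KO 1), 147 (KO 2) and 172 (KO 3). The KO libraries lay close together and far above the others. Both the lowest and the highest of the other libraries were HET, so that the WT range fell inside the HET range.

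Mean Tmem39a CPM were 5.46 ± 3.35 for WT (SD, n = 2), 6.62 ± 7.64 for HET (SD, n = 2) and 157 ± 13.3 for KO (SD, n = 3). Mean KO over mean WT was 28.8, and mean KO over mean HET was 23.8. The lowest KO library exceeded the highest WT library by 18.7 times and the highest HET library by 12.2 times. Between HET and WT the ratio of means was 1.21, and the difference was smaller than the SD of either group.

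HET 2 set the size of the ratio to HET. The log2 ratio of KO to HET was 4.57 with both HET libraries, 7.01 without HET 2 and 3.71 without HET 3. The log2 ratio of KO to WT was 4.85, and 5.67 without WT 2. The choice of the gene fixed the direction in each case. Leaving out any single KO library gave log2 ratios to WT of 4.78 to 4.90.

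Gbp7 went from a low level in WT and HET to a moderate level in KO. WT libraries held 119 and 256 estimated counts, HET libraries 145 and 160, and KO libraries 634, 596 and 591. These were 4.91 (WT 1), 8.14 (WT 2), 4.80 (HET 2), 5.73 (HET 3), 24.4 (KO 1), 17.6 (KO 2) and 21.2 CPM (KO 3). The KO libraries were above all others, and HET 3 lay between the WT libraries, with HET 2 just below WT 1.

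Mean Gbp7 CPM were 6.53 ± 2.29 for WT (SD, n = 2), 5.27 ± 0.659 for HET (SD, n = 2) and 21.1 ± 3.44 for KO (SD, n = 3). Mean KO over mean WT was 3.23, and mean KO over mean HET was 4.00. The lowest KO library was 2.16 times the highest WT library, WT 2, and 3.06 times the highest HET library. HET reached 0.807 of the WT mean, a difference smaller than the SD of WT but larger than that of HET. For both genes the HET mean lay between the WT libraries.

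**Figure D1:**
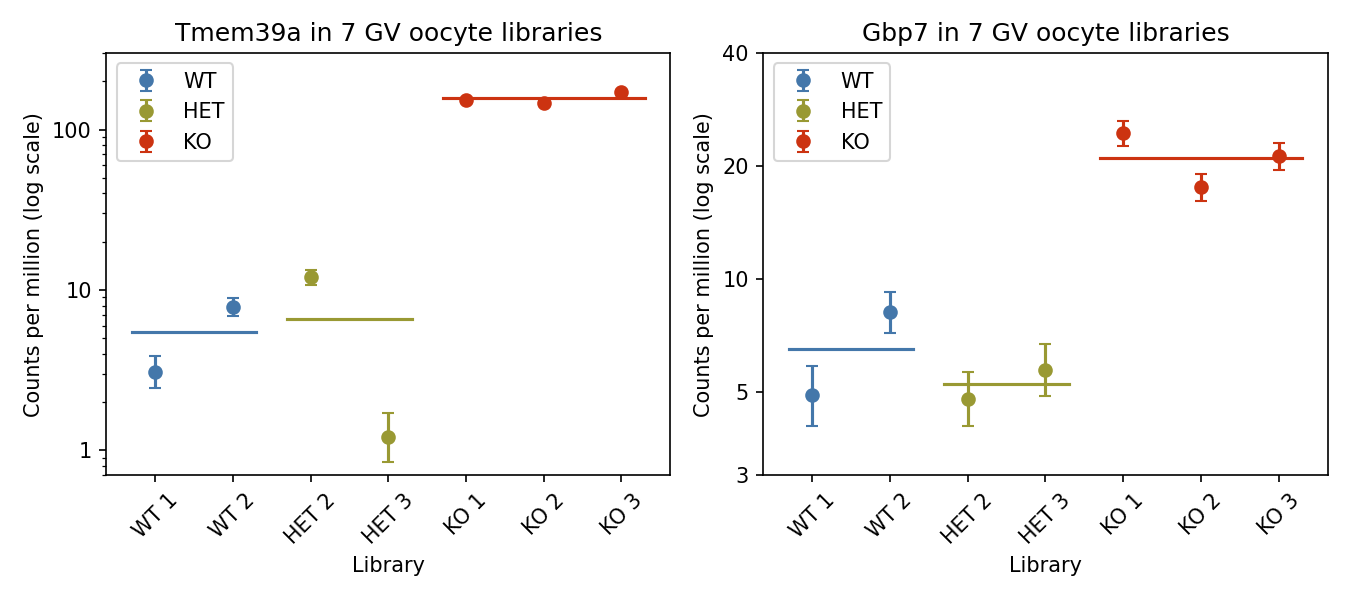
CPM (log scale) of Tmem39a (left) and Gbp7 (right) in each library. Points are libraries, bars are exact 95% binomial intervals of the counts and horizontal lines are group means. KO libraries sit at 147 to 172 CPM for Tmem39a and 17.6 to 24.4 CPM for Gbp7, above all WT and HET libraries.

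For Tmem39a the exact (Clopper-Pearson) 95% interval was 0.843 to 1.70 CPM in HET 3 and 10.8 to 13.3 CPM in HET 2. These intervals do not overlap, but differences between animals and between library preparations cannot be told apart. For Gbp7 the intervals of HET 2 (4.05 to 5.65 CPM) and HET 3 (4.88 to 6.69 CPM) did overlap. Such intervals leave out differences between animals and between preparations. They are also too narrow for counting error, because amplified reads are not independent molecules.

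Tmem39a had a wider relative spread in its low state than in its high state, while its SD in CPM was smaller (4.86 in WT and HET, 13.3 in KO). Among the 4 WT and HET libraries the highest value was 9.87 times the lowest, compared with 1.18 times among the KO libraries. The SD of log2(CPM + 0.5) was 1.28 in WT and HET, compared with a median of 0.77 over 1451 genes with a similar mean (within 1.5-fold), of which 82.2% had a smaller one. In KO the SD was 0.12, compared with a median of 0.18 over 784 genes with a similar mean, of which 26.7% had a smaller one. The medians of these genes thus differed in the same direction.

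The spread of Gbp7 was below the median of genes with a similar mean in both states. Its highest WT or HET value was 1.70 times the lowest, and its highest KO value 1.39 times the lowest. The SD of log2(CPM + 0.5) was 0.33 in WT and HET, where the median of 1464 genes was 0.78 and 8.13% had a smaller SD. In KO it was 0.23, where the median of 1499 genes was 0.38 and 23.7% had a smaller SD. Since the genes were chosen for values that are low in one set of libraries and high in the other, some steadiness is built into the choice.

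Age differed between the animals, and a pair of ages was shared by HET and KO libraries. At 36 weeks, Tmem39a was at 1.22 CPM in HET 3 and 172 CPM in KO 3, a ratio of 141. At 40 weeks it was at 12.0 CPM in HET 2 and 147 CPM in KO 2, a ratio of 12.2. Gbp7 was 3.70 times higher in KO 3 than in HET 3 and 3.66 times higher in KO 2 than in HET 2. The choice of the genes fixed the direction of these ratios, which rest on 1 library of each genotype, so that only their sizes are given and the part of age was not tested. The youngest animal, WT 2 (17 weeks), had more of both transcripts than WT 1.

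By rank of CPM within a library, not divided by gene length, Tmem39a moved from place 5046 to 8628 in WT and HET oocytes up to place 1058 to 1201 in KO. Gbp7 moved from place 5936 to 6670 up to place 3779 to 4399. Between 11679 and 12775 genes had a count in a library. Both genes had counts in every library. Whether the lowest counts, such as 34 for Tmem39a in HET 3, reflect transcripts of those oocytes was not tested.

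All KO libraries lay above all WT and HET libraries for both members, which the choice of members fixed. Among 9501 genes averaging 1 CPM or more over the libraries, 229 (2.41%) had this order, and 445 (4.68%) had the opposite order, with all KO libraries below. In 24 genes (0.253%) the lowest KO library was at least 2-fold above the highest WT or HET library. Both members were among the 24. Tmem39a was second by this ratio with 12.2, and Gbp7 was at place 21 with 2.16. The gene just inside the 2-fold limit had 2.15 and the gene just outside 1.94.

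The members differed from most of these genes in the level they reached. Of the 24, 21 stayed scarce in KO as well, with a highest KO value of 12.6 CPM among them. A minimum of 10 CPM in every KO library, which was set after the values were seen, left 3 genes, Tmem39a, Gbp7 and Nacc1. Nacc1 (ENSMAUG00000004663), which encodes a BTB-domain regulator of transcription, was already abundant in WT and HET at 132.5 to 184 CPM. With a further limit of less than 20 CPM in every WT and HET library, also set after the values were seen, the 2 members were left. Both limits act on the CPM by which the members were chosen, so that what they left restates the choice.

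The median gene had a KO to WT and HET ratio of 0.933, which is −0.10 on the log2 scale. Relative to this median, Tmem39a was raised 27.9 times and Gbp7 3.83 times over the WT and HET libraries together, compared with 26.1 and 3.57 times on the CPM scale.

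**Figure D2:**
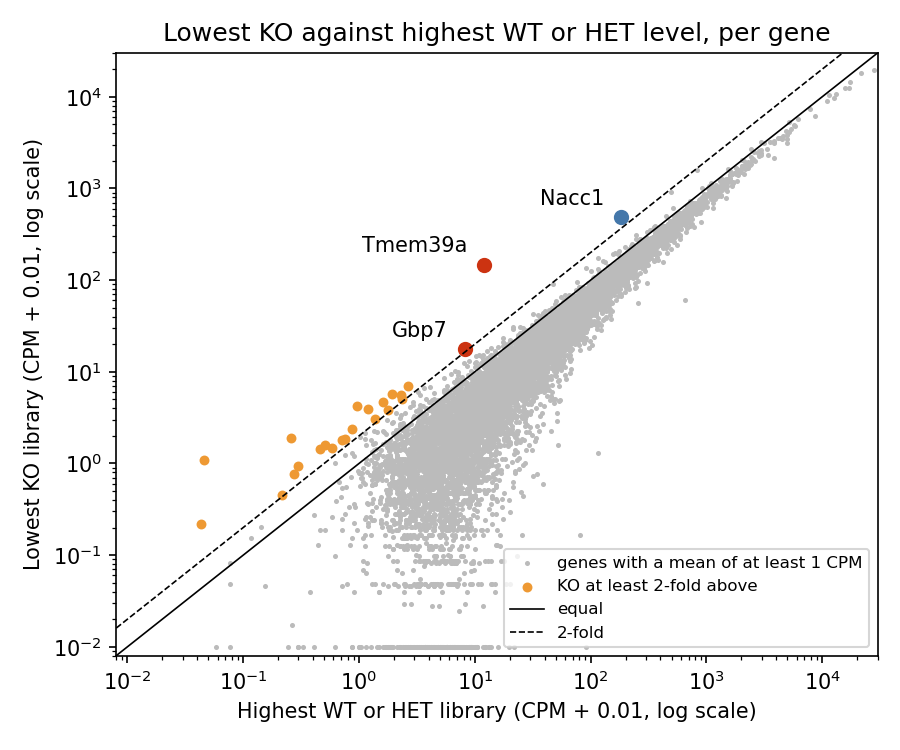
Lowest KO level against highest WT or HET level (CPM + 0.01, log scales) for 9501 genes. Grey points are genes, orange points the genes at least 2-fold apart, red points the members and the blue point Nacc1. The solid line marks equal values and the dashed line a 2-fold excess. Tmem39a stands 12.2-fold over the equal line and Gbp7 2.16-fold.

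A model fitted across all genes gave similar sizes. In DESeq2 with genotype as a factor, the log2 fold change of Tmem39a was 4.95 (SE 1.005) against WT, 4.56 (SE 1.004) against HET and 0.38 (SE 1.10) for HET against WT. Those of Gbp7 were 1.78 (SE 0.411), 2.06 (SE 0.412) and −0.28 (SE 0.455). The errors are larger for Tmem39a, the gene with the wider spread in WT and HET. In edgeR the log2 fold changes against WT were 4.94 for Tmem39a and 1.79 for Gbp7. The KO libraries are common to the comparisons with WT and with HET.

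The decimals of the deposited counts carry further information, because reads with several alignments, or over several genes, were divided by the authors. For Tmem39a the WT and HET counts were whole, while all 3 KO counts ended in 0.25. This pattern was read from Tmem39a itself and then searched for, and no other gene had it (to within 0.001). Among genes averaging 1 CPM or more, 24 were whole in WT and HET and not whole in KO. At least some reads of Tmem39a in KO were therefore shared with another place in the genome or another gene. How many cannot be read from the decimals, since parts of reads can add up to whole numbers. Not being whole is common at the KO level of this gene, where 25.5 to 32.2% of genes within 1.5-fold of it had such values. At its WT and HET levels the share was 12.8 to 15.9%, so that most genes there were whole.

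Gbp7 had whole counts in all 7 libraries, as did 4717 of the 9501 genes (49.6%). Guanylate-binding proteins form a family of similar genes, and a read that fits several copies would have been divided among them. Whole counts do not show that no such reads were present. The study describes the row as similar to guanylate-binding protein 4, so that its name within the family is uncertain.

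The genes with the pattern most like each member were looked up by Pearson correlation of log2(CPM + 1) over the 7 libraries, among 9500 other genes. The 7 points share the split into KO and other libraries, and no test is given. For Tmem39a they were ENSMAUG00000004623 (r = 0.984) and Nacc1 (r = 0.980). Nacc1 was at 180.4 and 184 CPM in the WT libraries, at 178 and 132.5 in the HET libraries and at 488, 483 and 545 in the KO libraries. As for Tmem39a, KO 3 was the highest library, KO 2 the lowest KO library and HET 3 the lowest of all. KO 2 and KO 1 were close for Nacc1. Its highest WT or HET library was WT 2, while that of Tmem39a was HET 2.

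ENSMAUG00000004623, picked for its correlation with Tmem39a, had a much smaller range. WT libraries had 3.22 and 3.90 CPM of it, HET libraries 4.43 and 3.13, and KO libraries 5.92, 6.14 and 7.00. Like Tmem39a, it was higher in WT 2 than in WT 1 and higher in HET 2 than in HET 3, but its lowest KO library was KO 1 and that of Tmem39a was KO 2.

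For Gbp7 the most similar gene was ENSMAUG00000012459 (r = 0.989), itself among the 24 genes at least 2-fold apart. WT libraries had 0.371 and 0.949 CPM of it, HET libraries 0.564 and 0.806, and KO libraries 7.97, 4.21 and 6.22. In both genes KO 1 was the highest and KO 2 the lowest KO library, and WT 2 was the highest of the other libraries.

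The correlation between the members was 0.927, which placed Gbp7 at place 16 among the genes most like Tmem39a, and Tmem39a at place 17 for Gbp7. Both were chosen for the same split into KO and other libraries, so that a high correlation was built into the choice. Within KO the order differed, with Tmem39a highest in KO 3 and Gbp7 highest in KO 1. Within HET it also differed, as Tmem39a was higher in HET 2 and Gbp7 higher in HET 3.

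**Figure D3:**
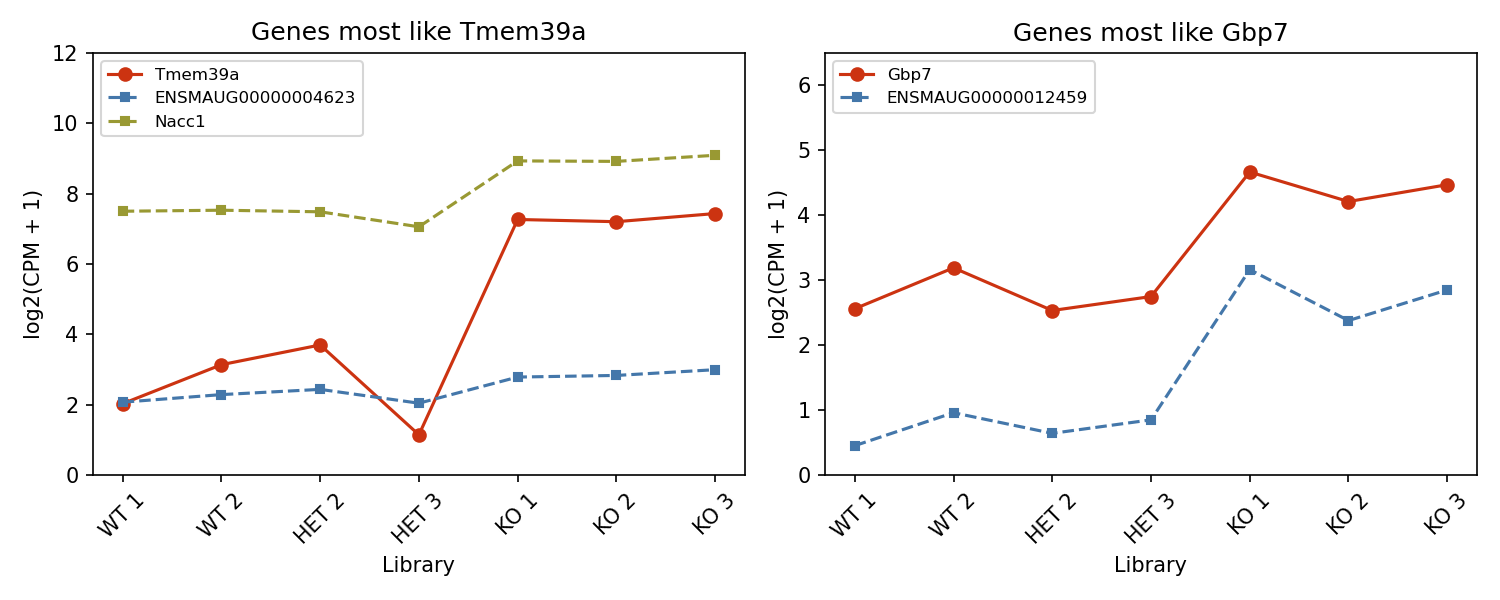
Levels as log2(CPM + 1) in each library for Tmem39a with its most similar genes, ENSMAUG00000004623 and Nacc1 (left), and for Gbp7 with ENSMAUG00000012459 (right). Circles on solid lines are the members and squares on dashed lines the similar genes. The lines connect libraries for reading only and all curves are higher in the KO libraries.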

How the data were processed

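RNA of GV oocytes was amplified and sequenced as single-end reads. The authors aligned the reads to the mesAur1 genome with STAR (version 2.7.3a) and counted them over Ensembl exons with featureCounts (version 2.0.0), without strand, dividing reads with several alignments or genes. The deposited values are estimated counts. Samples were grouped by labelled genotype. Each library carries an animal code of its own. The paper states that oocyte RNA-seq libraries of outlying pattern and poor quality were left out of its analysis. Spreads given here describe only the libraries with deposited counts.

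CPM were computed from the column totals and compared as ratios of group means, with exact binomial intervals (SciPy 1.17.1). Log2 fold changes with rounded counts came from DESeq2 (version 1.42.0) and edgeR (version 4.0.16) in R (version 4.3.3), after a check on simulated data. No p-value is given, as the members were selected on these values. Members and lists were chosen with earlier results of these data known. The named genes are both members, Mov10l1 and the genes most like each member (Piwil3, listed by symbol in the table, was added as an oocyte gene after its values were seen), with at most 2 unnamed identifiers, which left out the next most similar gene of Gbp7. Symbols came from the study's gene list. The RefSeq table used here (BCM_Maur_2.0) holds no Ensembl identifiers, so that coordinates, sequences, neighbouring genes, function lists and cell type markers were not used here.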

Additional observations from a re-analysis of the deposited data

How the results depend on the processing

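The choice of the genes fixed the higher level in KO, so that the alternatives bear on its size only. Of 88 alternative values of the log2 ratios of KO to WT, to HET or to both, 84 moved by less than 1 SD between replicates (1.10 for Tmem39a and 0.302 for Gbp7, on the log2 scale). For Tmem39a the ratio to WT ranged from 4.33 to 5.67, that to HET from 3.71 (without HET 3) to 7.01 (without HET 2), and that to both from 4.36 to 5.53. For Gbp7 the ratio to WT (1.69) was 2.11 with age as a covariate, and 1.37 (without WT 1) to 2.10 (without WT 2) with single libraries omitted. Its ratios to HET and to both stayed within 1.72 to 2.13.

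The small HET to WT ratios turned sign. For Tmem39a (0.28) omitting single libraries gave −2.16 (without HET 2) to 1.14 (without HET 3), and the mean of log2(CPM + 0.5) gave −0.24. For Gbp7 (−0.31) it was −0.01 with age as a covariate, and −0.63 (without WT 1) to 0.10 (without WT 2).

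With the replicate number as a replicate block, DESeq2 gave log2 fold changes against WT and HET of 5.61 and 5.44 for Tmem39a and of 1.77 and 2.08 for Gbp7. With age as a covariate, Tmem39a had 5.50 against WT. Libraries with the same replicate number carried different animal codes, and deviations of same-numbered libraries from their group means correlated by −0.015 to 0.051 across genes. Within WT and within HET these deviations mirror each other, so that the values are not separate checks. Differently numbered libraries were not compared, so that the values cannot decide whether the numbers mark pairs.

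Without the minimum mean, 104 rather than 24 genes were at least 2-fold apart, and Tmem39a and Gbp7 were at places 47 and 95. The minimum of 10 CPM in KO, chosen after seeing the data, left 3, since both settings change how many genes can qualify. Tests of neighbouring and listed genes were not run, because the RefSeq reference used here did not pair the identifiers with symbols or places.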
